A study of Mus musculus with 7 samples.

Results

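The genes described here are 42 components of the Wnt pathway, chosen by name as ligands, receptors, signal relay components, inhibitors and targets. All 42 were found by symbol among the 48795 gene rows of the deposited table, and 38 passed the filter on low counts that left 15934 genes for testing. The cells were primary oligodendrocyte precursor cells (OPCs), the glial progenitors that give rise to myelinating oligodendrocytes. They were isolated from wild-type CD-1 mouse pups of both sexes at postnatal days 4 to 7. The PE group (3 libraries, numbered 2, 3 and 4) was exposed for 1 hour to 20 µM phenylephrine, which activates α1-adrenergic receptors, and the control group (4 libraries, numbered 1 to 4) received no treatment. Replicate numbers 2, 3 and 4 form 3 pairs of a PE and a control library, and control 1 has no partner. No vehicle is named for the controls. The protocol text of the series also mentions tamoxifen, virus and immunoprecipitation in cortical tissue, and whether any of these touched the cultured cells is not stated. Library totals lay between 12837463 and 17962339 counts.

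Wnt proteins are secreted, lipid-modified signals that bind Frizzled receptors together with the co-receptors Lrp5 and Lrp6. In the canonical branch this stops the destruction complex of Axin, Apc and the kinase Gsk3b from marking β-catenin (Ctnnb1) for degradation, and stabilised β-catenin then works with TCF/LEF factors on target genes, several of which encode feedback inhibitors. In the oligodendrocyte lineage sustained canonical signalling is known to hold back differentiation, and Wnt7a and Wnt7b made by OPCs are known in mice to act on brain blood vessels. The comparisons ask which components OPCs express, and whether they differed after α1-adrenergic stimulation.

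The promoter windows of 4 members are shown because the results below return to these genes. Axin2 is the standard read-out of canonical signalling, Nkd1 and Fzd5 had the smallest p-values after PE, and Fzd1 was the Frizzled gene with the highest level. Each sequence is the 250 bases before the RefSeq transcription start on GRCm38.p6, 5′ to 3′ on the gene's strand, with capitals marking the TCF/LEF core CTTTGA on either strand.
Axin2, chr11:108920099-108920348, plus strand: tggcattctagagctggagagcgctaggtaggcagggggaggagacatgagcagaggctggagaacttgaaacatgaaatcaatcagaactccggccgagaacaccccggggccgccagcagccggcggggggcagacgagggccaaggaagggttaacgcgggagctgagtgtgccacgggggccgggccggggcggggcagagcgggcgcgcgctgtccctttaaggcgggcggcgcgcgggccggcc
Nkd1, chr8:88527383-88527632, plus strand: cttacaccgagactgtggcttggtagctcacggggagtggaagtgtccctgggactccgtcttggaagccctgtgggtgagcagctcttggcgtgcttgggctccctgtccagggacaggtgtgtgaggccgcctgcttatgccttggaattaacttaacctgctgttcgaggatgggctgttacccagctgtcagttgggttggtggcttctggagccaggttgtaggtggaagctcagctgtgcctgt
Fzd5, chr1:64737751-64738000, minus strand: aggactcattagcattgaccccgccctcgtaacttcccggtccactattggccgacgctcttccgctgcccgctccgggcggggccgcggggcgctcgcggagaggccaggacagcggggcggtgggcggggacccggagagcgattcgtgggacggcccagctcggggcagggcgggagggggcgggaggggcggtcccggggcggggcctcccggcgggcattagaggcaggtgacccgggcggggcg
Fzd1, chr5:4758217-4758466, minus strand: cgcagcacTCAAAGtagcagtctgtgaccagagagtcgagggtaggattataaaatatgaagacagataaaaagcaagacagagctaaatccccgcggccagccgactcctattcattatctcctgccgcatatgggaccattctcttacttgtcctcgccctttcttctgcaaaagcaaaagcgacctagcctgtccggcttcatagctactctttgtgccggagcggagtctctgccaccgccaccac
The core was found in the Fzd1 window, starting 242 bases before the transcription start, and not in the windows of Axin2, Nkd1 and Fzd5. Windows were on hand for 26 members (34 windows), and 5 of the 34 held the core, in Fzd1, Gsk3b, Lef1, Ror1 and Wnt5b, beside 13.8% of all 32851 mouse promoter windows of this length. The cAMP response element TGACGTCA was in 0 of the 34 member windows and in 1.55% of all windows. The matches are descriptions of these windows only.

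Levels were compared between genes as RPKM, read counts scaled for library size and exon length. Control means include control 1, which has no partner, so they can differ from PE means without a change within pairs. Control OPCs expressed components of each step of the canonical pathway, with 32 of the 42 members at a mean of at least 1 RPKM and 13 at 10 RPKM or more. The highest was Ctnnb1, which encodes β-catenin, at 179 ± 12.6 RPKM (SD, n = 4). The destruction complex genes Apc and Gsk3b followed at 35.5 ± 4.05 and 31.7 ± 1.93 RPKM, and Ctnnb1 lay above both in every control library. At the other end were Wnt3, Wnt4, the inhibitor Wif1 and the nuclear factor Lef1, which averaged 0.197, 0.136, 0.103 and 0.0247 RPKM and did not pass the filter. Between neighbours in the order of levels the ranges of the 4 control libraries mostly overlapped. They did not overlap in 4 of 41 neighbour pairs, which were Ctnnb1 over Apc, Gsk3b over Ryk, Axin1 over Nkd1 and Wif1 over Lef1.

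**Figure D1:**
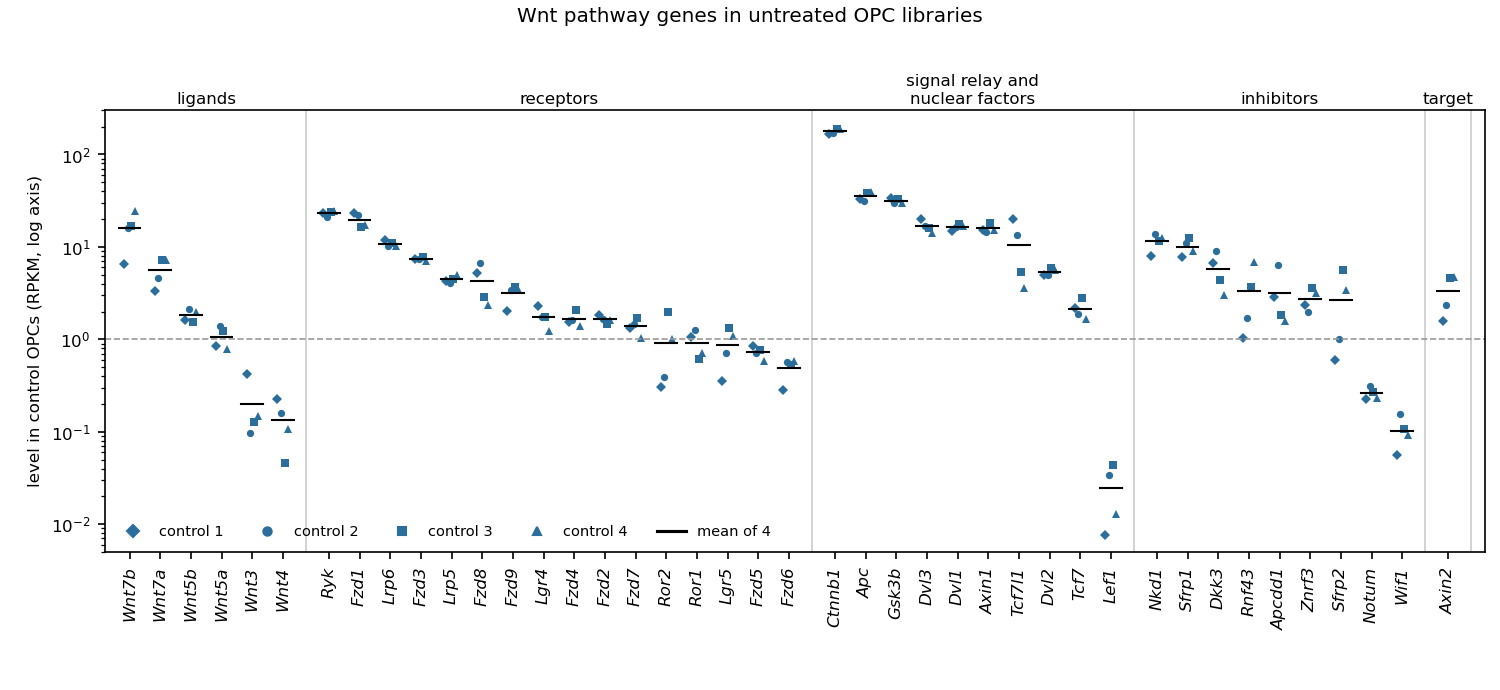
Level of each of the 42 members in the 4 control libraries (RPKM on a log axis), grouped by role, with points for single libraries, a line for their mean and a dashed line at 1 RPKM. Ctnnb1 stands highest at 179 RPKM and Lef1 lowest at 0.0247 RPKM, and members such as Tcf7l1, Rnf43, Sfrp2 and Ror2 spread widely between libraries.

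Among the ligands, Wnt7b and Wnt7a made up most of the Wnt message. Wnt7b is annotated on chromosome 15 from 85535437 to 85582473 and Wnt7a on chromosome 6 from 91363981 to 91411363, both on the minus strand (GRCm38, GENCODE M21). In counts scaled for library size (CPM), Wnt7b had 63.1, 78.3 and 120.4 CPM in PE libraries 2, 3 and 4, against 32.0, 78.7, 82.7 and 119.7 CPM in controls 1 to 4. Wnt7a had 12.9, 21.6 and 20.3 CPM in the PE libraries, against 10.6, 14.7, 22.7 and 22.6 CPM in controls. For both genes control 1 was lowest, and the PE libraries lay within the range of the controls apart from PE 4 for Wnt7b, which was just above it. Of the summed RPKM of all 19 Wnt genes, these 2 together held 78.2%, 86.9% and 90.4% in PE libraries 2, 3 and 4, against 72.8%, 83.4%, 87.0% and 89.3% in controls 1 to 4. The summed level itself was 21.7, 26.2 and 34.3 RPKM in PE, against 13.6, 24.8, 27.6 and 35.4 RPKM in control. Per length, Wnt7b averaged 17.8 ± 6.06 RPKM in PE (n = 3) and 16.0 ± 7.34 RPKM in control (SD, n = 4). That control mean includes the unpaired control 1 (6.54 RPKM), and within pairs the fitted log2 change of Wnt7b was -0.12 ± 0.06 (SE). Wnt5b had 6.003, 3.72 and 4.20 CPM in PE libraries 2, 3 and 4, against 4.28, 5.65, 4.13 and 5.19 CPM in controls 1 to 4, and the groups overlapped. The ligands usually assigned to the non-canonical branches were lower, with Wnt5b at 1.75 ± 0.454 RPKM in PE and 1.81 ± 0.274 in control and Wnt5a at 1.09 ± 0.362 and 1.06 ± 0.297 RPKM in the same order. Of the 13 other Wnt genes only Wnt9a passed the filter, at 0.912 ± 0.132 CPM in PE and 0.673 ± 0.177 CPM in control, and Wnt10b had 0 reads in all 7 libraries, where 3 counts correspond to 0.169 to 0.237 CPM.

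**Figure D2:**
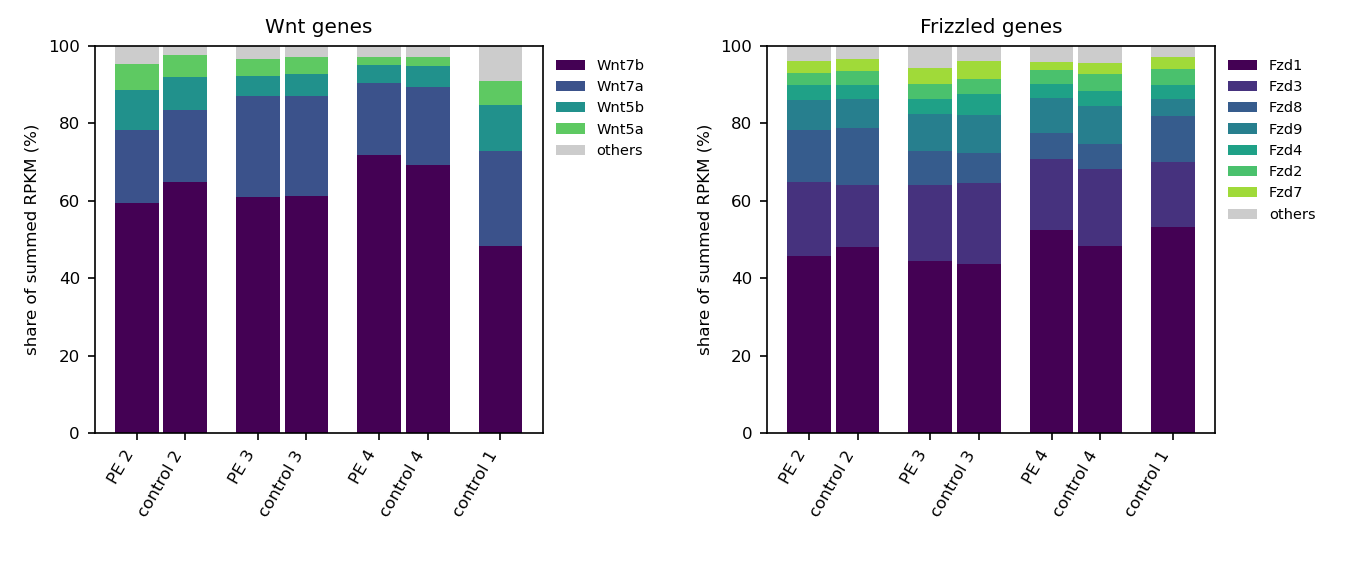
Share of each gene in the summed RPKM of the 19 Wnt genes (left) and of the 10 Frizzled genes (right), one bar per library, with each PE library left of the control of its own number and control 1 at the end. Wnt7b and Wnt7a held 72.8% to 90.4% of the Wnt sum, and Fzd1 and Fzd3 held 64.1% to 70.8% of the Frizzled sum.

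Among the 16 receptor members the main ones were Fzd1, Fzd3 and the atypical Wnt receptor Ryk, together with the co-receptor Lrp6. Of the receptor and co-receptor genes listed outside the 42, Tspan12 (34.5 RPKM), Sdc1 (13.5 RPKM) and Ptk7 (12.3 RPKM) averaged more than Lrp6 in control. The rest of that list averaged less. Ryk, a receptor with an inactive kinase domain, averaged 22.2 ± 2.31 RPKM in PE and 23.2 ± 1.58 RPKM in control. Its libraries had 89.6, 110.4 and 102.2 CPM in PE, against 105.9, 94.8, 107.8 and 111.4 CPM in control, with PE 2 the lowest of the 7. Fzd1 had 91.4, 76.2 and 80.6 CPM in PE libraries 2, 3 and 4, against 97.8, 92.6, 68.5 and 72.6 CPM in controls 1 to 4. Its PE libraries lay inside the control range. Lrp6 had 144.6, 137.9 and 134.3 CPM in PE, against 161.7, 141.1, 149.6 and 140.0 CPM in control, with control 1 the highest. Per length Fzd1 averaged 19.7 ± 1.86 RPKM in PE and 19.7 ± 3.45 RPKM in control, Lrp6 10.2 ± 0.385 and 10.8 ± 0.733, Fzd3 7.97 ± 1.17 and 7.38 ± 0.287, and Lrp5 4.50 ± 0.418 and 4.45 ± 0.372 RPKM in the same order. Fzd1 and Fzd3 together held 64.7%, 64.1% and 70.8% of the summed RPKM of the 10 Frizzled genes in PE libraries 2, 3 and 4, against 69.9%, 64.1%, 64.5% and 68.1% in controls 1 to 4. The remaining Frizzled members averaged between 0.488 RPKM (Fzd6) and 4.29 RPKM (Fzd8) in control. Ror1 and Ror2, receptor kinases of the Wnt5a branch, averaged 0.908 and 0.921 RPKM in control, and the R-spondin receptors Lgr4 and Lgr5 averaged 1.75 and 0.862 RPKM.

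Most signal relay components were even between libraries, Tcf7l1 excepted. The control libraries of Ctnnb1 spanned 1.15-fold from lowest to highest, those of Gsk3b 1.12-fold and those of Apc 1.27-fold. Ctnnb1 had 878, 1012 and 992 CPM in PE libraries 2, 3 and 4, against 859.6, 888, 986 and 984 CPM in controls 1 to 4. Apc had 562.5, 654 and 587 CPM in PE, against 533, 500.5, 618 and 636 CPM in control. Libraries 3 and 4 were the higher ones for both genes in control. Gsk3b had 315.5, 338 and 283 CPM in PE, against 331, 295, 325 and 297 CPM in control, and the groups overlapped. The scaffold Axin1 had 53.1, 59.5 and 57.6 CPM in PE libraries 2, 3 and 4, against 58.5, 56.2, 69.0 and 59.0 CPM in controls 1 to 4. Among the Dishevelled genes, which pass the signal on from Frizzled, Dvl3 and Dvl1 averaged 15.8 ± 2.58 and 17.1 ± 2.48 RPKM in PE and 16.8 ± 2.46 and 16.4 ± 1.31 RPKM in control, above Dvl2 at 5.07 ± 0.637 and 5.37 ± 0.498 RPKM. Among the TCF/LEF factors the levels were unequal. Tcf7l1, mainly a repressor, averaged 7.64 ± 5.05 RPKM in PE and 10.6 ± 7.61 RPKM in control, Tcf7 averaged 1.61 ± 0.182 and 2.13 ± 0.512 RPKM, and Lef1 had between 1 and 6 reads per library. Tcf7l2, a partner of β-catenin that is known to act in oligodendrocyte differentiation, is not one of the 42. It averaged 5.10 ± 3.18 RPKM in PE and 7.34 ± 5.26 RPKM in control (44.8 ± 27.9 and 64.4 ± 46.1 CPM). The unpaired control 1 was the highest control for Tcf7l1 (20.06 RPKM) and Tcf7l2 (14.41 RPKM). Within pairs their fitted log2 changes were 0.05 ± 0.07 and 0.01 ± 0.06 (SE). Exons of Ctnnb1, Wnt7b, Dvl1 and Dvl2 overlap exons of another tested gene (Ulk4, AU022754, Tas1r3 and Acadvl), and because the library preparation is unstranded these 4 values are less certain.

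The 9 inhibitor members were led by Nkd1, which binds Dishevelled and is a known target of the pathway. Of the inhibitor genes listed outside the 42, Wnk1 (22.0 RPKM) and Dact3 (11.8 RPKM) averaged more than Nkd1 in control, and the rest less. Nkd1 averaged 15.01 ± 1.59 RPKM in PE and 11.5 ± 2.58 RPKM in control, the secreted Frizzled-related protein gene Sfrp1 averaged 11.6 ± 2.08 and 10.1 ± 2.08 RPKM, and Dkk3, a divergent member of the Dickkopf family, averaged 5.35 ± 2.96 and 5.78 ± 2.69 RPKM. Sfrp1 had 51.3, 59.3 and 41.1 CPM in PE libraries 2, 3 and 4, against 33.9, 47.9, 54.4 and 39.5 CPM in controls 1 to 4, each PE library above the control of its number. Rnf43 and Znrf3, ubiquitin ligases that remove Frizzled from the cell surface, were at 3.43 ± 2.03 and 3.12 ± 0.890 RPKM in PE and 3.33 ± 2.62 and 2.76 ± 0.755 RPKM in control. Notum, the enzyme that strips the lipid from Wnt proteins, had between 1 and 22 reads per library. Axin2, both a target and an inhibitor, averaged 3.81 ± 0.940 RPKM in PE and 3.33 ± 1.60 RPKM in control. The unpaired control 1 was the lowest control for Rnf43 (1.045 RPKM) and Axin2 (1.577 RPKM). Within pairs their fitted log2 changes were -0.24 ± 0.08 and -0.03 ± 0.09 (SE).

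Part of the pathway differed between replicate numbers in PE and control alike. For 13 of the 38 members that passed the filter (34.2%) the highest control library exceeded the lowest by more than 2-fold, beside 29.4% of all tested genes, so a spread of this size was about as common among the members as elsewhere. The median ratio of highest to lowest control was 1.67 over the members and 1.55 over all tested genes. By role it was 2.45 for inhibitors, 1.96 for ligands, 1.56 for receptors and 1.23 for signal relay components. In bulk RNA, more cells of a type and more RNA per cell cannot be told apart, and these 13 members were picked out after their values were seen.

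Rnf43, Axin2, Lgr5, Sfrp2 and Ror2 were low in libraries 1 and 2 and higher in libraries 3 and 4. Rnf43 had 10.8, 19.8 and 37.0 CPM in PE libraries 2, 3 and 4, against 6.85, 11.2, 24.2 and 45.2 CPM in controls 1 to 4. Axin2 had 15.2, 25.1 and 22.6 CPM in PE, against 8.69, 13.02, 25.6 and 26.0 CPM in control. The PE library of each number was closer to the control of that number than to the other PE libraries for Rnf43, while Axin2 in PE 4 was closer to PE 3 than to control 4. Lgr5 had 6.22, 11.5 and 10.7 CPM in PE, against 3.60, 7.23, 13.5 and 11.1 CPM in control. Sfrp2 had 3.04, 11.5 and 7.08 CPM in PE, against 1.29, 2.18, 12.1 and 7.39 CPM in control, which is the widest control range of any member that passed the filter, at 9.37-fold. Ror2 had 1.77, 8.62 and 4.32 CPM in PE, against 1.29, 1.66, 8.40 and 4.29 CPM in control. For these 5 genes control 1 was the lowest control library.

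Tcf7l1, Fzd8, Dkk3 and Apcdd1 ran the other way. Tcf7l1 had 52.5, 22.5 and 15.03 CPM in PE libraries 2, 3 and 4, against 78.7, 52.5, 21.1 and 14.1 CPM in controls 1 to 4. Fzd8 had 38.7, 21.3 and 14.2 CPM in PE, against 31.1, 40.4, 17.1 and 13.9 CPM in control. Libraries 1 and 2 were high and libraries 3 and 4 low in both genes, whichever the treatment. Apcdd1, a membrane inhibitor that binds Wnt and Lrp proteins, had 80.2, 25.5 and 25.8 CPM in PE, against 37.4, 81.8, 23.8 and 20.4 CPM in control, and Dkk3 had 28.7, 16.2 and 9.04 CPM in PE, against 22.3, 30.6, 14.7 and 10.1 CPM in control. The remaining 4 of the 13 were Wnt7b, Wnt7a, Fzd6 and Ror1. Wnt7a and Wnt7b were also lower in controls 1 and 2 than in controls 3 and 4, and lower in PE 2 than in PE 3 and 4. Ror1 ran as Fzd8 did, with 7.91, 4.35 and 2.99 CPM in PE, against 6.04, 7.23, 3.55 and 4.12 CPM in control. Fzd6 kept to neither order, with 3.88, 3.32 and 2.25 CPM in PE, against 1.36, 2.71, 2.52 and 2.82 CPM in control. In 9 of the 13 the libraries numbered 2, 3 and 4 stood in the same order in PE as in control. The share over all tested genes was not taken, so this order cannot be called particular to these members. Over all tested genes, deviations from the group means correlated at 0.67 to 0.79 between PE and control of the same number. Between unlike numbers they ran from -0.75 to 0.67, and the highest, PE 2 with control 1, equalled that of number 3. The likeness is thus not limited to libraries of one number.

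**Figure D3:**
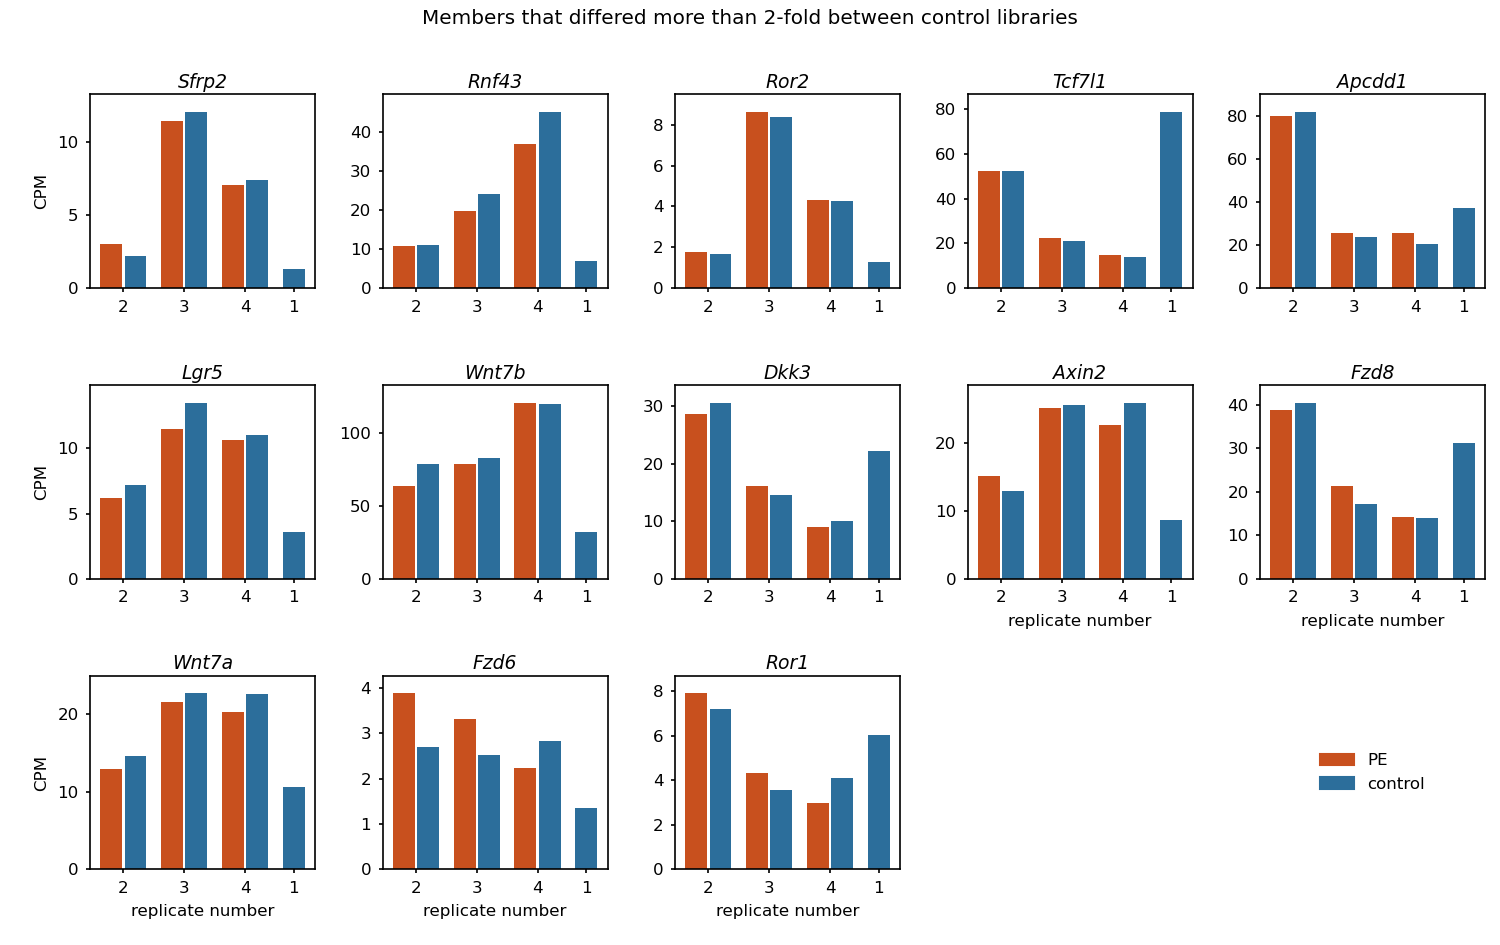
CPM of the 13 members whose control libraries differed more than 2-fold, as bars starting at 0, with each PE library left of the control of the same replicate number and control 1 last. Bars of one number are often alike across treatments, for example Rnf43 at 37.0 CPM in PE 4 and 45.2 CPM in control 4, and 10.8 CPM in PE 2 and 11.2 CPM in control 2.

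Cell type markers moved between the same libraries. The 9 markers of committed and mature oligodendrocytes summed to 4191, 3291 and 2268 CPM in PE libraries 2, 3 and 4, against 6963, 4116, 3310 and 2192 CPM in controls 1 to 4, an order shared by Tcf7l1 (78.7, 52.5, 21.1 and 14.1 CPM in controls 1 to 4) and opposite to that of Rnf43. The differentiation-linked pathway genes Tcf7l2 and Bmp4 followed the same order, with Tcf7l2 at 75.0, 39.3 and 20.0 CPM in PE, against 126.4, 71.3, 38.2 and 21.8 CPM in control, and Bmp4 at 27.3, 12.6 and 11.1 CPM in PE, against 45.5, 26.9, 16.4 and 8.02 CPM in control. Ccnd1, the cyclin D1 gene and a reported Wnt target, ran the opposite way, with 429, 1706 and 2184 CPM in PE, against 271, 476, 1783 and 2249 CPM in control. Exons of Ccnd1 overlap those of another tested gene, so its reads are less certain. Daam2, a modulator of Wnt receptor complexes, had 66.04, 33.0 and 22.3 CPM in PE, against 54.6, 62.2, 35.9 and 20.9 CPM in control. The part of these markers in the spread of the Wnt genes was not tested.

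The 15 OPC markers summed to between 11140 and 13520 CPM in PE and between 11660 and 13330 CPM in control, and all 15 exceeded 1 CPM in every library. Within pairs 3 of the 15 passed the test by edgeR, beside 0.540% of all genes, with Tmem100 higher in PE by 0.83 (adjusted p = 0.00226) and Olig2 and Sox8 with changes of -0.19 (adjusted p = 0.0334) and -0.37 (adjusted p = 0.0315) on the log2 scale. Exons of Sox8 overlap another tested gene. The even sum covers members that moved in opposite ways between libraries. Gpr17, a gene of committed precursors, had 3245, 907 and 666.5 CPM in PE libraries 2, 3 and 4, against 4580, 3263, 918 and 691 CPM in controls 1 to 4, while Pdgfra, the growth factor receptor of OPCs, had 2198, 2251 and 2347 CPM in PE, against 1341, 2021, 2210 and 2253 CPM in control. Markers of other cells were also present. The 11 astrocyte markers summed to 1281 to 1836 CPM in PE and 1231 to 1809 CPM in control, the 9 neuron markers to 1033 to 1226 and 1071 to 1162 CPM, and the 10 mural and leptomeningeal markers, which include the OPC gene Cspg4, to 541 to 631 and 413 to 604 CPM. Cspg4 alone supplied most of the mural and leptomeningeal sum (368 to 543 CPM in PE and 288 to 507 CPM in control). Map2 made up most of the neuron sum (901 to 948 CPM in PE and 899.7 to 969.7 CPM in control). Rbfox3 had 0.848 to 2.21 CPM in PE and 0.475 to 1.68 CPM in control. Gad1, an enzyme of GABA synthesis on the neuron list, was the 1 neuron marker called within pairs, higher in PE by 0.83 on the log2 scale (edgeR adjusted p = 0.00585, higher in 3 of 3 pairs). Endothelial markers (8 genes) summed to 12.0 to 49.4 CPM in PE and 12.3 to 37.6 CPM in control, with 4 of the 8 above 1 CPM in every library, and microglia markers (9 genes, 5 of them above 1 CPM throughout) to 33.4 to 58.3 and 28.9 to 56.5 CPM. How far these cells add to the Wnt message was not tested.

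After 1 hour of PE no member of the pathway passed the test. Within pairs 0 of 38 members were called (edgeR, adjusted p under 0.05 by Benjamini-Hochberg over all genes, pairs as a block). Over all genes 86 of 15934 were called, a background of 0.540%, with 80 higher in PE (0.502%) and 6 lower (0.0377%), so a count of 0 among 38 is close to that background. At an unadjusted p under 0.05 there were 4 members, Nkd1, Fzd5, Rnf43 and Tcf7 (10.5%), beside 5.76% of all genes. By DESeq2 and by limma-voom with the block the count of called members was 0 as well. Without the pairs edgeR called 0 members and 0 genes, with 0 members and 71 genes (0.446%) at an unadjusted p under 0.05, and DESeq2 called 0 members and 2 genes. The members were divided evenly, with 19 log2 changes above 0 and 19 below, and the median log2 change was 0.0017 over the members and -0.0011 over all tested genes. In 12 members the direction was the same in all 3 pairs, 6 higher and 6 lower (31.6% of 38), beside 25.4% of all genes. For 0 of the 38 members did the PE and control libraries separate without overlap, which 1.26% of all genes did.

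Nkd1 came nearest to the threshold. It had 69.7, 60.6 and 74.9 CPM in PE libraries 2, 3 and 4, against 36.0, 63.5, 52.3 and 57.3 CPM in controls 1 to 4. PE exceeded control in all 3 pairs, with log2 ratios of 0.134, 0.213 and 0.386, while the groups overlapped through PE 3 and control 2. The fitted change was 0.25 ± 0.06 (SE), or 1.19-fold, with a 95% interval of 0.12 to 0.38 and an adjusted p of 0.125 by edgeR with the block. Nkd1 is annotated on chromosome 8 from 88521354 to 88594884 on the plus strand (GRCm38, GENCODE M21), so the RefSeq start used for its promoter window lies inside that span.

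Fzd5, a Frizzled receptor present at a low level, had 6.57, 9.80 and 5.12 CPM in PE libraries 2, 3 and 4, against 5.90, 4.97, 5.36 and 4.01 CPM in controls 1 to 4. Every PE library was above the control of its own number, and PE 4 was below 2 of the 4 controls, controls 1 and 3. The log2 ratios were 0.394, 0.855 and 0.345, and the fit gave 0.56 ± 0.16, or 1.47-fold, with a 95% interval of 0.22 to 0.90 and an adjusted p of 0.265 by edgeR with the block. Fzd5 is on chromosome 1 from 64730558 to 64737751, minus strand.

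Both genes crossed the threshold in some alternatives. With pair 2 left out, Nkd1 changed by 0.31 (adjusted p = 9.74e-05) and Fzd5 by 0.64 (adjusted p = 0.0262) in edgeR with the block, and with no filter on low counts they changed by 0.25 (adjusted p = 0.0139) and 0.56 (adjusted p = 0.0311). Leaving out pair 2 removes the smallest Nkd1 ratio (0.134), and more genes were then called over the whole table too. With pair 3 or pair 4 left out no member was called, the smallest member adjusted p being 0.465 and 0.0661 by edgeR with the block. Over the 9 alternatives that keep the block the adjusted p ranged up to 1 for both, and the log2 change ranged from 0.17 to 0.31 for Nkd1 and from 0.38 to 0.66 for Fzd5. Without the block the changes were 0.39 and 0.50, and neither was below 0 in any of these fits. The unpaired control 1, the lowest control for Nkd1 (36.0 CPM), counts in the fit without the block.

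Rnf43 and Tcf7 were lower in PE in all 3 pairs without passing. Rnf43, whose per-library values stand above, had log2 ratios of -0.0529, -0.288 and -0.288 in pairs 2, 3 and 4, and a fitted change of -0.24 ± 0.08 (95% interval -0.42 to -0.06, edgeR adjusted p = 0.568). Without the block the Rnf43 change turned to 0.04, and over the 9 alternatives that keep the block it ranged from -0.28 to -0.20, with adjusted p between 0.0501 and 1. The fit without the block also counts the unpaired control 1, the lowest control for Rnf43 (6.85 CPM). Tcf7 had 4.52, 4.51 and 3.69 CPM in PE, against 5.70, 4.89, 7.43 and 4.35 CPM in control. PE 4 lay below every control library, and PE 2 and PE 3 lay below all controls but control 4. Its ratios were -0.111, -0.705 and -0.231, with a fitted change of -0.37 ± 0.17 and an edgeR adjusted p of 0.851.

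The canonical read-out and the main ligands showed no call. Axin2 had a fitted change of -0.03 ± 0.09 with a 95% interval of -0.23 to 0.17, and its ratios of 0.220, -0.0283 and -0.197 in pairs 2, 3 and 4 had both signs. Without the block, where the unpaired control 1 (8.69 CPM, the lowest control) also counts, its change turned to 0.19 (edgeR adjusted p = 0.9999). The fitted change was -0.12 ± 0.06 (95% interval -0.25 to 0.01) for Wnt7b and -0.14 ± 0.09 (-0.32 to 0.05) for Wnt7a. All 4 ligands that passed the filter had a fitted change below 0, between -0.14 and -0.07, with adjusted p of at least 0.906 by edgeR with the block, where 8080 of all 15934 genes were below 0. The fit without the block did not share this direction. Wnt7b (0.16), Wnt7a (0.05) and Wnt5a (0.03) were above 0 there and Wnt5b (-0.05) below. That fit also counts control 1, which has no partner and was the lowest control for Wnt7b (32.0 CPM) and Wnt7a (10.6 CPM). The part of control 1 in these signs was not tested. The fitted change of Ctnnb1 was 0.01 ± 0.03, with a 95% interval of -0.06 to 0.08. For 34 of the 38 members the 95% interval stayed within 0.5 of 0 on the log2 scale in both directions, and for 37 it stayed within 1. The exception was Notum, which has few reads, with an interval of -0.80 to 1.33.

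**Figure D4:**
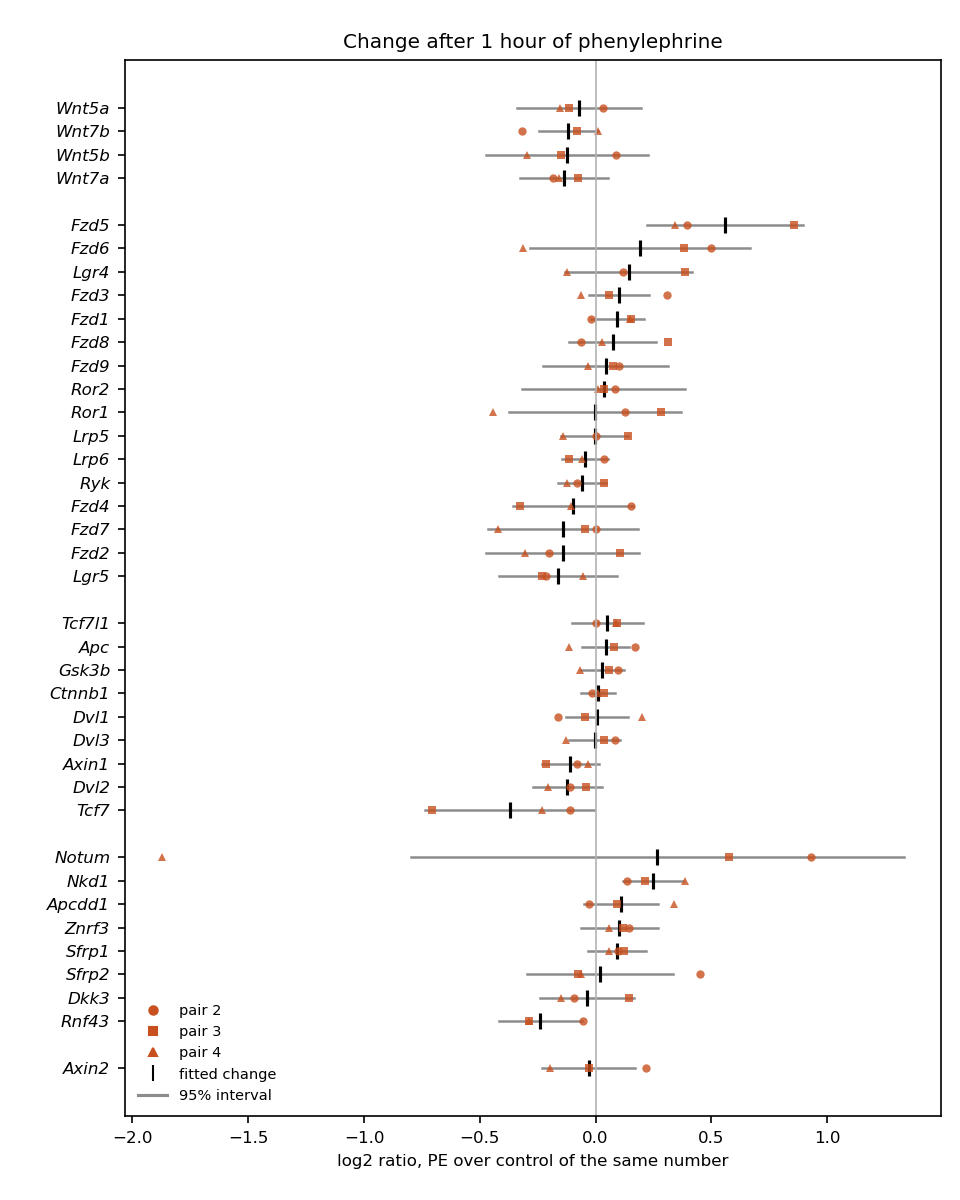
Log2 ratio of PE over control in pairs 2, 3 and 4 (points) for the 38 members that passed the filter, with the fitted change within pairs (tick) and its 95% interval (line), ordered by role from ligands at the top to Axin2 at the bottom. Nkd1 at 0.25 and Fzd5 at 0.56 have all 3 pairs above 0, and Rnf43 at -0.24 and Tcf7 at -0.37 have all 3 below 0.

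No other gene of the pathway passed the test either. Of 130 further genes in lists of ligands, release factors, receptors, relay components, nuclear cofactors, inhibitors, planar polarity genes and reported targets, 129 were in the table and 93 passed the filter. Within pairs 0 of the 93 were called in either direction, with 10 at an unadjusted p under 0.05, where 5.76% of all genes were. The nearest above 0 were the co-repressor Tle3 (0.15 ± 0.05, adjusted p = 0.330 by edgeR with the block, higher in 3 of 3 pairs) and the AP-1 subunit Jun (0.22 ± 0.07, adjusted p = 0.370, higher in 2 of 3 pairs). The nearest below 0 were the β-catenin cofactor Bcl9 (-0.19 ± 0.06, adjusted p = 0.461) and Tnfrsf19 (-0.11 ± 0.04, adjusted p = 0.680), each lower in 3 of 3 pairs. Jun overlaps the antisense gene Junos, so its reads are less certain. The reported targets Myc and Ccnd1 had fitted changes of 0.00 ± 0.04 and -0.08 ± 0.04. Without the block the changes of Jun, Tnfrsf19, Myc and Ccnd1 turned to -0.02, 0.06, -0.30 and 0.27, none of them called. Control 1, which has no partner, counts in that fit. It was the lowest control for Tnfrsf19 (85.1 CPM) and Ccnd1 (271 CPM) and the highest for Myc (474 CPM). PE and control libraries did not overlap for 2 of the 93, named after their values were seen, the receptor-like Ptk7 (lower) and the phosphatase subunit Ppp2r5a (higher), neither of which passed the test, beside 1.26% of all genes. Ppp2r5a had 50.9, 49.2 and 49.7 CPM in PE libraries 2, 3 and 4, against 46.0, 45.6, 46.2 and 44.7 CPM in controls 1 to 4.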

How the data were processed

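The authors deposited whole-number read counts per Ensembl gene, 1 column per library and not normalized. The submitters' processing notes name bcl2fastq 2.17, STAR, HTSeq and the builds GRCm38 and mm10, while annotation release and strand setting were not given in the sources used here. The cDNA was amplified with SMART-Seq v4 and tagged with Nextera XT, per the labels' protocols. This chemistry does not mark strand, and counts are not of independent molecules, so floors cover counting error only. Groups and replicate numbers came from sample titles. Library totals were 12837463 to 17962339 counts. Replicates of a group differed by more than counting noise (chi-square over its degrees of freedom 12.0 to 102.4). Nothing states that they came from separate cultures, so the spread behind each p-value may be technical.

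Symbols were matched for 48349 of 48795 rows. Counts were analysed with edgeR 4.0.16 in R 4.3.3 (TMM, filterByExpr with a minimum count of 10 and minimum total of 15, quasi-likelihood F test, two-sided), without and with the replicate number as a block. The numbers were taken to pair the samples, since the library codes in the titles match within each pair. Deviations from the group means correlated at 0.74, 0.67 and 0.79 for numbers 2, 3 and 4. Between unlike numbers the correlations ran from -0.75 to 0.67. The highest, for PE 2 with control 1, was as large as that of number 3. Standard errors were derived from log2 change and F. CPM used TMM library sizes, RPKM the union of exons in GENCODE M21, and log2 ratios per pair a prior count of 2. DESeq2 1.42.0 and limma-voom (limma 3.58.1) were alternatives, and the procedure was tested on simulated counts. The members and lists were chosen with earlier results of these data known. Values in every library are given for the 3 highest members of each role and the 2 with the smallest p, for members with a control range over 2-fold, and for a few further pathway genes.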

Additional observations from a re-analysis of the deposited data

Results flagged for a closer look

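Control 1 stood apart from the other control libraries in 2 of the 42 members, by Dixon's test on the 4 controls. Wnt3 had 1.29 CPM in control 1, against 0.301 to 0.452 CPM in the other controls, and its level there rests on 19 reads. Fzd9, a Frizzled receptor gene, had 4.61 CPM in control 1, against 7.90 to 8.40 CPM in the other controls. Chance flags about 1 in 20 groups, so 2 among 42 is no more than that rate. Control 1 has no PE partner and carries no weight in the change within pairs.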

How the results depend on the processing

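No member was called without the pairs under any alternative run, including each library left out in turn, and over all genes the count of 0 became 86 with the replicate block and 2 with DESeq2. Within pairs, the 86 genes called became 0 without the block, 33 with DESeq2 and 194 with no filter on low counts, and ranged from 52 to 254 with a pair left out (253 without pair 2, 52 without pair 3, 254 without pair 4). The 0 called members became 2 (Nkd1 and Fzd5) with no filter and ranged from 0 to 2 with a pair left out, the 2 being the same genes without pair 2. The 0 other pathway genes called became 1 (Jun) with no filter, and ranged from 0 to 2 with a pair left out (Apc2 and Jun without pair 2, Macf1 without pair 4). The cause of these moves was not tested. Some uncalled members changed sign between settings. Among the alternatives to the paired fit the most were 10 of 38, when the block was dropped and the unpaired control 1 counted. They were Wnt5a, Wnt7a, Wnt7b, Fzd1, Fzd8, Lrp5, Lgr5, Tcf7l1, Rnf43 and Axin2. The count of members at 1 RPKM or more stayed within 1.5 times its value under every alternative, while 10 single levels moved by more than 1 SD when the longest transcript replaced the union of exons. Depth limits Wnt3, Wnt4, Wif1, Lef1 and Notum most.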

Other observations

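The machinery for releasing Wnt proteins was present. Wls, the carrier that takes Wnt proteins to the cell surface, averaged 36.4 ± 2.29 CPM in PE (SD, n = 3) and 36.5 ± 2.32 CPM in control (SD, n = 4). Porcn, the enzyme that attaches the lipid, had 16.8, 11.5 and 9.27 CPM in PE libraries 2, 3 and 4, against 23.1, 17.3, 11.5 and 8.81 CPM in controls 1 to 4. The Wnt7 co-receptor genes Adgra2 and Reck, known in mouse brain endothelium, were at low levels, with Adgra2 at 5.61 ± 0.822 CPM in PE and 4.77 ± 1.43 CPM in control and Reck at 11.3 ± 4.13 CPM in PE and 12.5 ± 2.71 CPM in control. Exons of Adgra2 overlap those of another tested gene, so its reads are less certain.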
